A study of Mus musculus with 6 samples.

Results

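The genes described here are the mouse Zfp zinc finger genes, taken as every gene whose symbol in the array annotation is Zfp followed by a number, with Zfp36 left out. The array carried 304 such symbols on 574 probe sets, a probe set being the group of short probes that together read 1 transcript. Of these, 179 genes had a probe set above log2 4, the level used to set measurable signal apart from background, on at least 3 of the 6 arrays and were tested, among 9460 tested genes in all. Where a gene had several such probe sets it was read by the one with the highest mean, and the others are stated for the called members.

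Hematopoietic stem cells were sorted from marrow. The donors were C57Bl/6 (CD45.1) males aged 10 weeks. Cells of both groups were sorted as Lineage-negative, Sca-1-positive and c-Kit-positive and lay in the side population, a gate on cells that export a DNA dye. Lower-SP cells came from the lower part of that gate and Upper-SP cells from the upper part, with 3 arrays each. The labels give 3 pools of mice sorted on separate days as the source of the replicates, so each array reads pooled animals. Both groups share the strain, age, sex and surface phenotype, and the position in the gate is the only labelled difference.

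Zinc finger proteins of this kind carry repeated fingers of the C2H2 type, each of which folds around a zinc ion and reads a few bases of DNA. In many of them a KRAB domain binds the corepressor TRIM28, which brings in histone methyltransferases and heterochromatin proteins and keeps retroelements and imprinted genes silent. Other members lack the domain and act as activators, ubiquitin ligases or RNA-binding proteins. The stem cell genes Procr (13.59 to 13.84 in Lower-SP, 13.61 to 13.84 in Upper-SP) and Meis1 (12.66 to 12.94 in Lower-SP, 12.49 to 12.64 in Upper-SP) were bright on every array, while Kit, the gene of a sort marker, was lower in Lower-SP (-0.92). The progenitor genes Flt3 (-2.22) and Cd34 (-1.41) were lower too, and their part in the Zfp differences was not tested. Cd48, listed with them, read at most 2.83 and lay under the level for testing. The T cell genes Cd3e, Cd3g and Cd3d lay under log2 3 on every array, and Cd8a at no more than 3.25.

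Of the 125 Zfp genes that were not tested, 101 lay at or under log2 4 at every probe set on every array. They include Zfp57, which maintains methylation at imprinted regions (at most 2.52), Zfp42, a marker of embryonic stem cells also called Rex1 (at most 2.71), Zfp423, a partner of early B cell factors (at most 2.54), and Zfp105 (at most 1.94). The members nearest the threshold on the inside, by the array that decides the filter, were Zfp3 (4.01), Zfp748 (4.02) and Zfp677 (4.05), and those nearest on the outside were Zfp251 (3.997), Zfp213 (3.99) and Zfp935 (3.94). Of the 179 tested members, 158 were above log2 4 on all 6 arrays. In 1 member the signal passed that level on the Lower-SP arrays alone, and in 2 on the Upper-SP arrays alone, so these could enter the test only through the group where they were high. All values below are log2 signals as deposited by the authors, and each difference is the Lower-SP mean less the Upper-SP mean. In sorted populations such as these, fewer cells that express a gene and less transcript per cell cannot be told apart.

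The Zfp genes went both ways in nearly equal number, whereas the tested genes as a whole were mostly lower in Lower-SP. Of the 179 members 19 were higher (10.6%) and 17 lower (9.50%) at an adjusted p under 0.05 (limma, Benjamini-Hochberg over all tested probe sets). Among all 9460 tested genes 7.05% were higher and 20.7% lower, 27.7% in all. With cyclic loess scaling the members split 26 higher to 12 lower, against 962 to 1303 over all genes. With centring on the median they split 25 to 15, against 793 to 1645 over all genes. The median difference was -0.004 over the Zfp genes and -0.24 over all tested genes, and 89 members had a positive and 90 a negative difference. The middle of the members' differences ran from -0.42 to 0.42 (quartiles), against -0.66 to 0.18 for all genes. Changes of at least 2-fold were called for 11 members upward and 8 downward, against 4.16% and 8.95% of all genes. The groups' values did not overlap in 70 members, 34 higher and 36 lower, which is 39.1% against 45.7% of all genes. Among the 158 members above log2 4 on all 6 arrays 18 were higher and 15 lower (median -0.01). These counts and medians are descriptions, and the list as a whole was not tested.

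**Figure D1:**
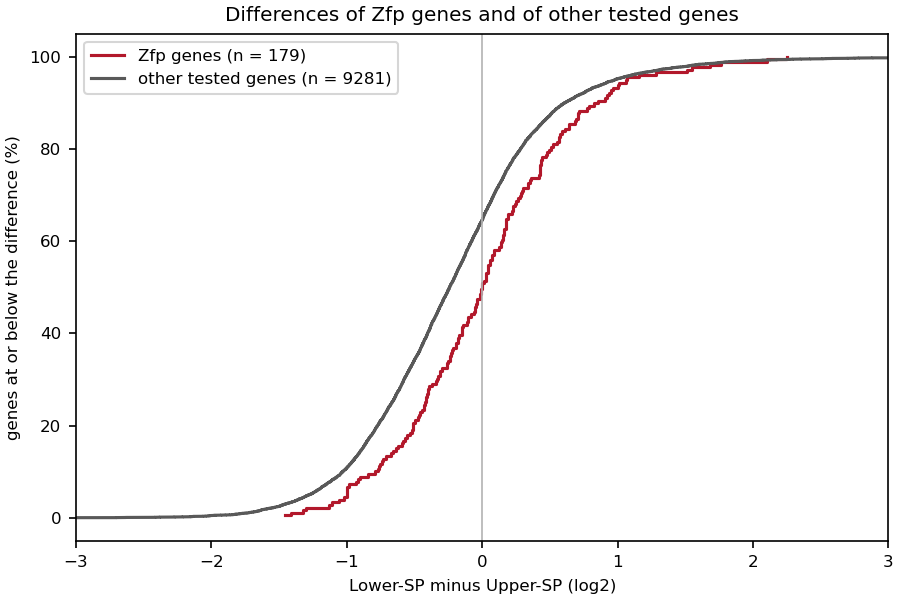
Cumulative share of genes (vertical axis, percent) at or below each Lower-SP minus Upper-SP difference (horizontal axis, log2, drawn from -3 to 3) for the 179 Zfp genes (red) and the other 9281 tested genes (grey). The red curve crosses its middle near 0 and the grey curve near -0.24.

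The counts depended on single arrays. Leaving out Lower-SP replicate 1 gave 11 higher and 13 lower members (all genes 467 and 1230). Leaving out Lower-SP replicate 2 gave 12 and 10 (all genes 429 and 978). Only 3 and 3 were called without Upper-SP replicate 1, and 6 and 9 without Upper-SP replicate 2. The counts over all genes were lower too, at 270 and 425 without Upper-SP replicate 1 and 387 and 798 without Upper-SP replicate 2, beside 667 and 1958 with all arrays. For the members the numbers were 22 and 24 when Lower-SP replicate 3 was dropped (all genes 791 and 2294). They were 20 and 23 when Upper-SP replicate 3 was (all genes 679 and 2139). Of the 36 called members, Zfp568, Zfp711, Zfp91, Zfp692, Zfp369 and Zfp932 kept the call whichever of the 6 arrays was left out. The other 30 lost it in at least 1 of these fits. The tested probe sets were held fixed as chosen from all 6 arrays. Zfp568 had passed that filter through its Lower-SP arrays alone and would fail it without any 1 of them. Neutrophil transcripts were highest in Lower-SP replicates 1 and 2. The summed signal of 10 neutrophil markers, on the log2 scale, was 14.27, 13.78 and 11.86 in Lower-SP and 12.28, 12.33 and 12.07 in Upper-SP. Of the 8 tested markers 4 were higher and 1, Prtn3, lower. Elane lay under log2 3 and Mpo at no more than 4.25 on every array. Prtn3 makes up most of the sum on Lower-SP replicate 3 (11.42) and in Upper-SP (11.99 to 12.12). The 4 higher markers, S100a8, S100a9, Lcn2 and Chil3, read above every Upper-SP array on Lower-SP replicate 3 too (S100a8 9.16 against at most 7.87). Camp, Ltf and Ngp lay there within the Upper-SP range, under Lower-SP replicates 1 and 2. Without those 2 replicates 13 Zfp genes were higher and 10 lower, 9 and 7 of them among the members called with all arrays. That fit holds 1 Lower-SP array, which is assumed to vary like the Upper-SP arrays, so the spread comes from Upper-SP alone. Igha, an immunoglobulin heavy chain gene of plasma cells, also differed between arrays, with 9.40, 8.99 and 4.70 in Lower-SP and 12.43, 12.60 and 11.31 in Upper-SP. Of the other plasma cell markers, Jchain was not called, and Mzb1 and Tnfrsf17 lay under log2 3 on every array. The part of either cell type in the Zfp differences was not tested further.

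**Figure D2:**
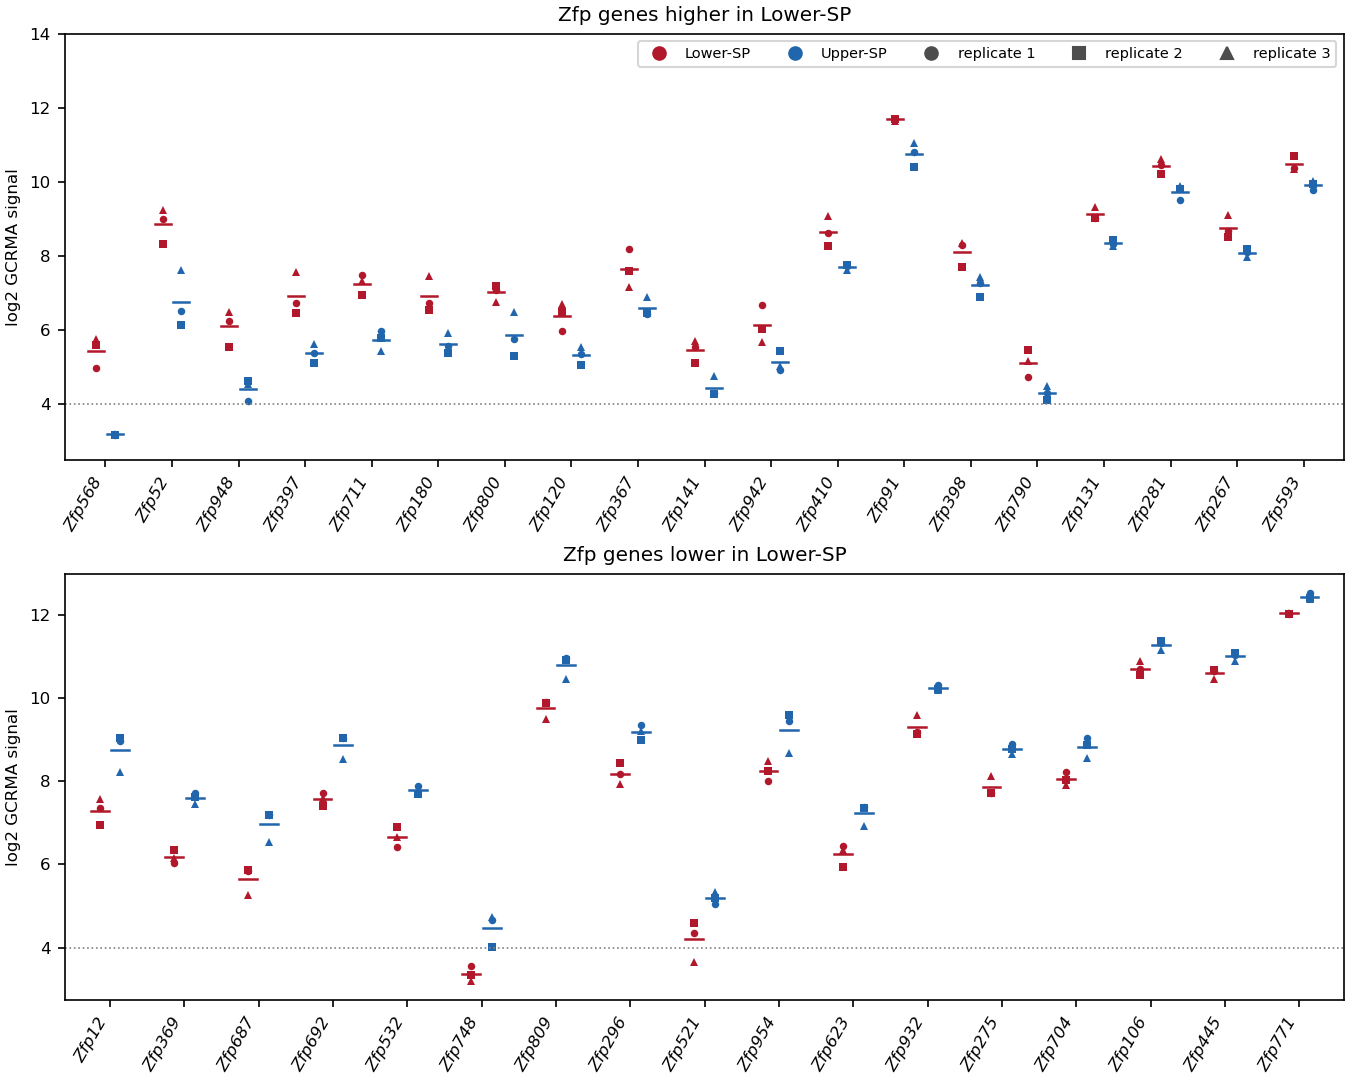
Log2 signal (vertical axis) of the 19 Zfp genes higher (upper panel) and the 17 lower (lower panel) in Lower-SP, ordered by the size of the difference. Red symbols are Lower-SP arrays and blue symbols Upper-SP arrays, the shapes mark the replicates, bars are group means and the dotted line is log2 4. No red and blue values overlap within any of these genes.

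Among the raised genes, Zfp568 stood out from background in Lower-SP alone. Zfp568, a KRAB protein known in mouse for repressing a placental Igf2 transcript, read 4.97, 5.59 and 5.76 in Lower-SP and 3.17, 3.18 and 3.21 in Upper-SP. All Upper-SP values lay under log2 4 and were nearly identical, so the rise is given as at least 2.72-fold (fitted difference 2.25, SE 0.25, adjusted p = 0.0022). It is the 1 member that entered the test through Lower-SP alone. Zfp711, an X-linked factor known in human as a binding partner of a histone demethylase, read 7.48, 6.94 and 7.33 in Lower-SP and 5.98, 5.78 and 5.45 in Upper-SP. The groups lay clear of each other, and the difference was 1.51 (SE 0.25, 2.85-fold, adjusted p = 0.0065). Zfp397 read 6.74, 6.46 and 7.58 in Lower-SP and 5.39, 5.11 and 5.64 in Upper-SP, a difference of 1.55 (SE 0.33, adjusted p = 0.014) that was largest on Lower-SP replicate 3, whereas its dimmer probe set read -0.44 and was not called.

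Zfp410, which activates transcription of the remodeler gene Chd4, read 8.62, 8.26 and 9.09 in Lower-SP and 7.73, 7.77 and 7.62 in Upper-SP. The Upper-SP values lay close together and under every Lower-SP value (difference 0.95, SE 0.24, 1.93-fold, adjusted p = 0.022), and its second probe set read 0.64 without a call. Zfp410 kept its call in 3 of the 6 fits that leave out 1 array. Zfp91, a ubiquitin ligase that acts on a kinase of the noncanonical NF-kappa-B pathway, read 11.70, 11.71 and 11.65 in Lower-SP and 10.81, 10.41 and 11.04 in Upper-SP. Its Lower-SP arrays were almost level and the Upper-SP arrays more spread (difference 0.93, SE 0.17, adjusted p = 0.0077). A dimmer probe set of Zfp91 was called higher too (1.39) and a further one read -0.45 without a call. The remaining most raised members were Zfp180 (1.28, SE 0.31), Zfp800 (1.16, SE 0.33, with 3 of its 5 probe sets called higher), Zfp120 (1.07, SE 0.27), Zfp367 (1.06, SE 0.30) and Zfp141 (1.01, SE 0.26). Lower down, Zfp398 (0.91), Zfp790 (0.82), Zfp131 (0.79), Zfp281 (0.69), Zfp267 (0.68) and Zfp593 (0.57) were called higher at the probe set that reads the gene. The second probe sets of Zfp398 (0.24), Zfp790 (0.71) and Zfp267 (0.38) were not called. With 1 array left out, Zfp267 kept its call in 0 of the 6 fits and Zfp790 in 1. Zfp800, Zfp367, Zfp398 and Zfp593 each kept it in 2. The second probe set of Zfp593 read -0.70 without a call, so the sign of Zfp593 turns with the choice of probe set.

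Among the lowered genes, Zfp12 and Zfp369 showed the greatest falls. Zfp12 read 7.35, 6.94 and 7.58 in Lower-SP and 8.96, 9.05 and 8.23 in Upper-SP. Upper-SP replicate 3 was the nearest to the Lower-SP values without reaching them (difference -1.46, SE 0.28, 2.75-fold, adjusted p = 0.010). Zfp369, a relative of the neurotrophin receptor-interacting factor, read 6.04, 6.36 and 6.15 in Lower-SP and 7.72, 7.63 and 7.45 in Upper-SP. Both groups were tight (difference -1.42, SE 0.21, 2.67-fold, adjusted p = 0.0046). Zfp110, the neurotrophin receptor-interacting factor itself, read 6.39, 5.58 and 5.60 in Lower-SP and 4.91, 4.49 and 5.26 in Upper-SP, a difference of 0.97 that was not called (adjusted p = 0.055).

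Zfp809, the KRAB protein that recognises the primer binding site of murine leukemia virus and recruits TRIM28 to proviral DNA, fell to 9.91, 9.89 and 9.49 in Lower-SP, against 10.97, 10.93 and 10.47 in Upper-SP. Replicate 3 was the lowest array in both groups, and the groups did not overlap (difference -1.02, SE 0.19, 2.03-fold, adjusted p = 0.0088). Zfp445, a guardian of imprinted methylation together with Zfp57, read 10.64, 10.67 and 10.47 in Lower-SP and 11.04, 11.10 and 10.89 in Upper-SP. That fall was small (-0.42, SE 0.13, adjusted p = 0.042), its second probe set fell by more (-1.12, adjusted p = 0.020), and the call at the brighter one was lost in 12 of 17 alternatives, quantile normalization, centring and cyclic loess among them. Zfp521, a cofactor of immature hematopoietic cells that opposes early B cell factors, read 4.36, 4.58 and 3.66 in Lower-SP and 5.06, 5.20 and 5.33 in Upper-SP. Its Lower-SP values lay around log2 4, near background (difference -0.996, SE 0.28, adjusted p = 0.033). Zfp521 lost its call with centring on the median and kept it in 2 of the 6 fits that leave out 1 array.

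A pair of genes whose human counterparts are partners of the chromatin reader ZMYND8 fell together. Zfp687 read 5.83, 5.86 and 5.27 in Lower-SP and 7.19, 7.19 and 6.54 in Upper-SP (difference -1.32, SE 0.29, adjusted p = 0.015). Zfp532 read 6.41, 6.89 and 6.66 in Lower-SP and 7.89, 7.69 and 7.76 in Upper-SP (difference -1.13, SE 0.21, adjusted p = 0.0092). The third gene of that group, Zfp592, was not called at the probe set that reads it, and 1 of its 3 probe sets was called higher. Zfp692, a repressor of gluconeogenic genes in liver, read 7.72, 7.41 and 7.59 in Lower-SP and 9.05, 9.04 and 8.54 in Upper-SP (difference -1.30, SE 0.21, adjusted p = 0.0058). Zfp296, a partner of KLF4 in reprogramming of mouse cells, read 8.17, 8.43 and 7.94 in Lower-SP and 9.35, 8.99 and 9.20 in Upper-SP (difference -1.002, SE 0.19, adjusted p = 0.010). Zfp748 lay under log2 4 on all Lower-SP arrays (3.55, 3.35 and 3.21) and just above it in Upper-SP (4.67, 4.02 and 4.74), a fitted difference of -1.11, or a fall of at least 1.39-fold. It entered the test through Upper-SP alone, where it is high, and its call was lost when values under log2 4 were set to 4 (-0.47, adjusted p = 0.13). Zfp954 (-0.996), Zfp623 (-0.98) and Zfp932 (-0.93) complete the 12 most lowered, followed by Zfp275 (-0.92), Zfp704 (-0.77), the RNA-binding protein gene Zfp106 (-0.57) and Zfp771 (-0.40). A second probe set was called lower too for Zfp106 (-0.96, with 2 more not called) and Zfp771 (-0.71), and that of Zfp704 was not called (-0.86). With cyclic loess scaling the calls of Zfp704, Zfp106, Zfp771 and Zfp954 were lost.

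Many members with well-described functions were not called. Zfp148, a GC-box-binding factor also called ZBP-89, read 10.04, 10.11 and 10.35 in Lower-SP and 10.29, 10.15 and 9.93 in Upper-SP (difference 0.04, 95% interval -0.32 to 0.40), and none of its 6 probe sets was called. Zfp622, whose yeast counterpart helps mature the large ribosomal subunit, was the brightest member, a measure that cannot rank transcripts between genes, and read 12.91 to 13.10 in Lower-SP and 12.88 to 13.03 in Upper-SP, while the dimmest of its 3 probe sets was called lower (-1.24). Zfp598, the ubiquitin ligase that senses collided ribosomes, read 9.77, 9.95 and 10.07 in Lower-SP and 10.51, 10.49 and 10.20 in Upper-SP, without overlap and just outside the threshold (difference -0.47, adjusted p = 0.052). Zfp207, a spindle-associated partner of BUB3, differed by 0.43 (adjusted p = 0.074, with 1 of 5 probe sets called higher), and Zfp292 by 0.55 (adjusted p = 0.074, with 1 of 4 probe sets called lower).

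The B and T lymphocyte factors Zfp318 (-0.46, adjusted p = 0.16) and Zfp335 (-0.15, adjusted p = 0.64) were not called, nor was Zfp384, a fusion partner in human leukemia (-0.51, adjusted p = 0.096). Zfp217 (-0.43), the SUMO ligase gene Zfp451 (-0.37), Zfp703 (0.42), Zfp746 (0.03), Zfp263 (0.52), Zfp219 (-0.56), Zfp516 (-0.41), Zfp326 (-0.30), the double-stranded RNA-binding gene Zfp346 (-0.34) and Zfp407 (-0.05) likewise did not pass. Zfp90 read 4.71, 4.74 and 4.91 in Lower-SP and 6.20, 6.42 and 4.90 in Upper-SP, where replicate 3 alone fell among the Lower-SP values (difference -1.06, adjusted p = 0.081). Of the 5 brightest members, Zfp622 (0.04, adjusted p = 0.75), Zfp945 (0.47, adjusted p = 0.058) and Zfp330 (-0.22, adjusted p = 0.30) were not called.

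Lower-SP replicate 3 differed from the other Lower-SP arrays by more than 1 log2 unit in 20 members, above them in 14 and below them in 6, which is 11.2% of the members against 11.3% of all tested genes. Zfp341 read 2.88, 3.52 and 5.82 on the Lower-SP arrays, Zfp239 read 4.59, 4.75 and 6.69, and Zfp182 read 5.30, 4.93 and 6.57. Zfp84 read 5.59, 4.86 and 3.06 on the Lower-SP arrays, Zfp160 read 6.08, 6.36 and 4.17, and Zfp638 read 6.74, 6.81 and 4.76. None of these 6 genes was called, and none of the 36 called members had such a gap. A gap of this size widens the spread that the test uses and works against a call. Its absence among the called members therefore says little about them.

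A gene read by several probe sets did not always give 1 direction. Of the 60 members with at least 2 tested probe sets, up to 6, 28 had probe sets of opposite sign. The reading probe set was called in 15 of them. In 6 of the 15 another probe set was called the same way, in 8 no other was called, and in 1, Zfp281, another was called the opposite way. Zfp281, a regulator of pluripotency in mouse embryonic stem cells, read 10.45, 10.22 and 10.62 in Lower-SP and 9.51, 9.82 and 9.88 in Upper-SP at the brighter probe set (difference 0.69, adjusted p = 0.020). At the dimmer one it read 9.51, 9.62 and 9.38 in Lower-SP and 10.38, 10.32 and 10.32 in Upper-SP (difference -0.84, adjusted p = 0.0057), so no direction is given for the gene. Zfp24 had 5 probe sets, 1 called higher (0.72), 1 called lower (-1.29) and the brightest not called (-0.26). A further 16 members were not called at the reading probe set but at another. The same counts were not made over all tested genes, so they are not read as a trait of the family. Over all 273 tested probe sets of the family 29 were higher (10.6%) and 33 lower (12.1%), against 10.7% and 17.5% of all tested probe sets.

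The kind of sequence a probe set was designed on also differed between the family and the rest. Only 14 of the 179 members (7.82%) were read by a probe set annotated to a RefSeq mRNA, against 19.8% of all tested genes. Of these 14, 1 was higher and 1 lower (median -0.10), and of the 165 others 18 were higher and 16 lower (median 0.00). Over all tested genes the medians were -0.40 with and -0.19 without a RefSeq mRNA, so the family's median lay above that of all genes in either class. By signal, 6 of the 66 members with a mean under log2 6 were higher and 2 lower (median 0.04), against 4.60% and 12.1% of all genes at that level (median -0.14). From log2 6 to 8 it was 7 and 4 of 62 (median 0.01), against 6.53% and 18.1% (median -0.31). From log2 8 to 10 lower members prevailed, with 3 higher and 7 lower of 36 (median -0.18), against 8.12% and 25.6% (median -0.29). Over log2 10 it was 3 and 4 of 15 (median 0.04), against 9.62% and 29.3% (median -0.19).

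Zfp genes often lie side by side on mouse chromosomes. By the gene order of the GRCm38.p6 assembly, 60 members stood in 22 runs in which at most 1 other protein-coding gene separated neighbours. A run with fewer than 2 called members could not show calls in both directions. In 0 runs were members called in both directions, but only 1 run held at least 2 called members, all called the same way. That run, the longest, holds 11 tested members on chromosome 17, from Zfp677 to Zfp943. In it 3 members were higher, 0 lower and 9 had a positive difference, with a median of 0.42. All 25 tested Zfp genes of chromosome 17 had a median of 0.16, 18 of them with a positive and 7 with a negative difference. The 446 tested genes of that chromosome outside the Zfp family had a median of -0.33, with 4.71% higher and 21.7% lower. This run was picked out after its values were seen, and the probes of such close relatives may read more than 1 gene, which was not tested.

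In that run Zfp52 read 9.01, 8.34 and 9.25 in Lower-SP and 6.53, 6.15 and 7.62 in Upper-SP. Upper-SP replicate 3 was the highest of its group and still under every Lower-SP value (difference 2.10, SE 0.41, 4.29-fold, adjusted p = 0.010), and a dimmer probe set read 0.42 without a call. Its neighbour Zfp948 read 6.25, 5.55 and 6.50 in Lower-SP and 4.08, 4.62 and 4.54 in Upper-SP (difference 1.69, SE 0.31, 3.22-fold, adjusted p = 0.0082). Zfp942 read 6.69, 6.03 and 5.68 in Lower-SP and 4.91, 5.44 and 5.03 in Upper-SP (difference 1.004, SE 0.31, adjusted p = 0.047), and its second probe set was called higher too (1.33, adjusted p = 0.012). The call at the brighter probe set of Zfp942 was kept in 1 of the 6 fits that leave out 1 array, against 5 for Zfp52 and 5 for Zfp948. Between them in order, Zfp983, Zfp760, Zfp820 and Zfp995 were not called at the probe set that reads the gene. The second probe set of Zfp995 was called higher (1.22). Zfp53, on the other side of Zfp52, read 5.21, 6.14 and 5.21 in Lower-SP and 4.56, 4.59 and 5.29 in Upper-SP, with overlap (difference 0.70, adjusted p = 0.16).

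**Figure D3:**
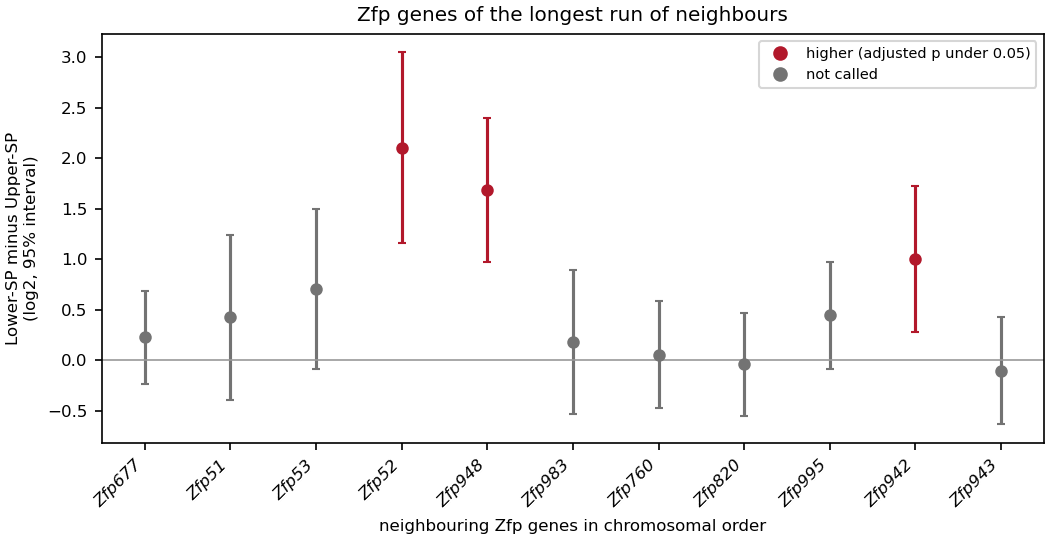
Lower-SP minus Upper-SP difference (vertical axis, log2, bars are unadjusted 95% intervals from limma) of the 11 neighbouring Zfp genes of chromosome 17 in chromosomal order. Red points passed the test and grey points did not. Zfp52, Zfp948 and Zfp942 are the red points, at 2.10, 1.69 and 1.004, and the grey points lie between -0.11 and 0.70.

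The promoters of the adjacent raised genes Zfp52 and Zfp948 are shown because these genes lie next to each other and rose together. They are the 250 bases before each start, 5′ to 3′ on the gene's strand, from RefSeq (GRCm38.p6), at chr17:21535289-21535538 and chr17:21566728-21566977, both on the plus strand. Capitals mark the stretch of each that aligns best with the other.
Zfp52: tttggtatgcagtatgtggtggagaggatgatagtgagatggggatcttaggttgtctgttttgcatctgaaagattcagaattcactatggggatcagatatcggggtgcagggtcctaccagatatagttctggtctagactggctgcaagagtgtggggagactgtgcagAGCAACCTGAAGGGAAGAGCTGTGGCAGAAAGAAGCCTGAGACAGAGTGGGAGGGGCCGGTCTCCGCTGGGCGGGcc
Zfp948: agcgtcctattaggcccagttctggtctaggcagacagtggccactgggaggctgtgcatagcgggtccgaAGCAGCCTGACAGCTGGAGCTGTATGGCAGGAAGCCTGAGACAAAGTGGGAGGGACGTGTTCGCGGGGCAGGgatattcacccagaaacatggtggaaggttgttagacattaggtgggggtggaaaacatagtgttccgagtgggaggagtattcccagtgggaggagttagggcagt
In that stretch 58 of 70 aligned bases were identical (82.9%). The same window of the neighbour Zfp53, which was not called, matched that of Zfp52 at 133 of 166 aligned bases and that of Zfp948 at 150 of 189. Over the 45 pairs of the 10 run members with a promoter in the table the median was 20 identical bases of 22 aligned.

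For the lowered genes, the promoters of Zfp12 (chr5:143234913-143235162, plus strand) and Zfp692 (chr11:58306819-58307068, plus strand) are shown because both hold the NRF1 motif, in capitals, close to the start, in Zfp12 on the opposite strand.
Zfp12: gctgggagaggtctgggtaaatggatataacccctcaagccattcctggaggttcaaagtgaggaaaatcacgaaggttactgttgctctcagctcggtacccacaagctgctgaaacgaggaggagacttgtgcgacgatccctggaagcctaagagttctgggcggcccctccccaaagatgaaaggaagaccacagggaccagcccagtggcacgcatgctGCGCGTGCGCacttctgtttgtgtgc
Zfp692: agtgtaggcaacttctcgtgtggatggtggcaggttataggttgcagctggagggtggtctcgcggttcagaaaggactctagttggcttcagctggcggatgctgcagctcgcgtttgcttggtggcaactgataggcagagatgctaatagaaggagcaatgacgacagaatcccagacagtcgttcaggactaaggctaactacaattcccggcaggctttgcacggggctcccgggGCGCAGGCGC
Promoter windows from 250 bases before to 50 after the start were found for 148 of the 179 members, 14 of the 19 higher and 12 of the 17 lower, and some genes have several windows. Each was searched on both strands for 8 strings, none of which contains another. Shares are given in turn for the windows of all tested members, of all tested genes and of all 32851 promoters. The NRF1 motif was in 4 of 17 windows of the higher and 3 of 15 of the lower members (shares 9.84%, 10.8% and 4.60%). The ETS motif CCGGAAG was in 5 of 17 and 0 of 15 (18.6%, 18.5% and 8.86%). The GC box GGGCGG was in 11 of 17 and 8 of 15 (54.6%, 64.2% and 35.7%), and the CCAAT box in 9 of 17 and 9 of 15 (44.3%, 37.3% and 37.4%). The YY1 motif AAGATGGC was in 0 of 17 and 2 of 15 (6.56%, 4.88% and 2.75%), and the E box CACGTG in 1 of 17 and 1 of 15 (8.20%, 10.4% and 7.15%). The cAMP response element TGACGTCA was in 1 of 17 and 0 of 15 (2.73%, 3.06% and 1.79%), and the TATA box TATAAA in 1 of 17 and 0 of 15 (7.10%, 6.84% and 13.6%). The members' shares of the NRF1 and ETS motifs thus lay close to those of tested genes, and their share of the GC box under it. Windows of the higher members held a median of 20 CpG dinucleotides and those of the lower members 15, against 17 over all tested members and 21 over all tested genes. These matches are descriptions of letters, not of binding.

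Genes listed for the corepressor machinery of KRAB zinc fingers and for other silencing complexes also changed in both directions. Of 37 listed symbols 32 were on the array and 30 were tested, of which 5 were higher (16.7%) and 8 lower (26.7%), against 7.05% and 20.7% of all genes, with a median of -0.23 beside -0.24 for all genes. Trim28, the scaffold bound by KRAB domains, fell to 12.47, 12.48 and 12.46 in Lower-SP, against 13.04, 12.95 and 12.76 in Upper-SP (difference -0.45, SE 0.10, adjusted p = 0.017). Its second probe set fell too (-0.63, adjusted p = 0.012). The call at the brighter one was lost with cyclic loess scaling and kept in 3 of the 6 fits that leave out 1 array. Setdb1, the methyltransferase recruited by TRIM28, read 5.66, 5.61 and 5.45 in Lower-SP and 6.73, 6.19 and 7.05 in Upper-SP at its brighter probe set (-1.08, adjusted p = 0.023), whereas its other probe set was called higher (1.55, adjusted p = 0.015). No direction is given for Setdb1. Atrx, Gatad2a, Atf7ip and Rbbp4 count as not called, because the probe set that reads each of them was not called. Other probe sets were called higher for Atrx (1.63 and 2.07), Gatad2a (1.28 and 0.81) and Atf7ip (1.12), and lower for Rbbp4 (-0.73).

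The largest falls in this list were those of a pair of partner histone methyltransferases. Ehmt1 read 8.52, 8.37 and 8.38 in Lower-SP and 10.24, 10.21 and 10.01 in Upper-SP (difference -1.73, SE 0.15, 3.31-fold, adjusted p = 0.0011). Ehmt2, its partner, also called G9a, read 8.03, 7.70 and 7.72 in Lower-SP and 9.70, 9.77 and 9.12 in Upper-SP (difference -1.71, SE 0.22, adjusted p = 0.0034). Tasor, a subunit of the silencing complex HUSH, fell by 1.497 (SE 0.24), while its partner Mphosph8 rose by 0.49 (SE 0.13). Hdac2 (-0.93), the heterochromatin protein gene Cbx5 (-0.87) and Sumo3 (-0.79) were lower as well. The call of Hdac2 was lost with cyclic loess and in 4 of the 6 fits that leave out 1 array, and its other probe sets (-0.81 and -0.02) were not called. Cbx5 lost its call in 4 of those 6 fits. Mphosph8 kept its call in 3 of them, and its second probe set (0.31) was not called.

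Chd4, the remodeler of the NuRD complex and the target of Zfp410 named above, read 14.13, 13.86 and 13.91 in Lower-SP and 13.27, 13.05 and 13.21 in Upper-SP (difference 0.79, SE 0.10, adjusted p = 0.0035). A dimmer probe set of Chd4 was called higher too (1.95) and another read -0.75 without a call (adjusted p = 0.058). The NuRD subunit genes Gatad2b (1.66, SE 0.37) and Rbbp7 (0.31, SE 0.09) and the chromatin gene Morc3 (1.16, SE 0.20) were called higher at the probe set that reads the gene. The second probe set of Rbbp7 read -0.25 without a call, and Rbbp7 kept its call in 1 of the 6 fits that leave out 1 array, so no direction is given for it. The other probe sets of Gatad2b (0.36 and 0.78) were not called, and Gatad2b kept its call in 3 of those fits. Chd3 (-0.42) and Mbd3 (-0.76) were not called. Leaving out Upper-SP replicate 1, an alternative chosen after seeing the data, left 2 higher and 3 lower of the list (all genes 270 and 425). Upper-SP replicate 2 left 3 and 4 (all genes 387 and 798). Lower-SP replicate 1 left 3 and 6 (all genes 467 and 1230), and Lower-SP replicate 2 left 3 and 4 (all genes 429 and 978). Without Lower-SP replicates 1 and 2 together 1 was higher and 4 lower. Ehmt1, Ehmt2, Tasor, Chd4 and Morc3 kept the call in each of the 6 fits that leave out 1 array, and Morc3 alone of these lost it in the fit with 1 Lower-SP array, where Upper-SP alone gives the spread.

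**Figure D4:**
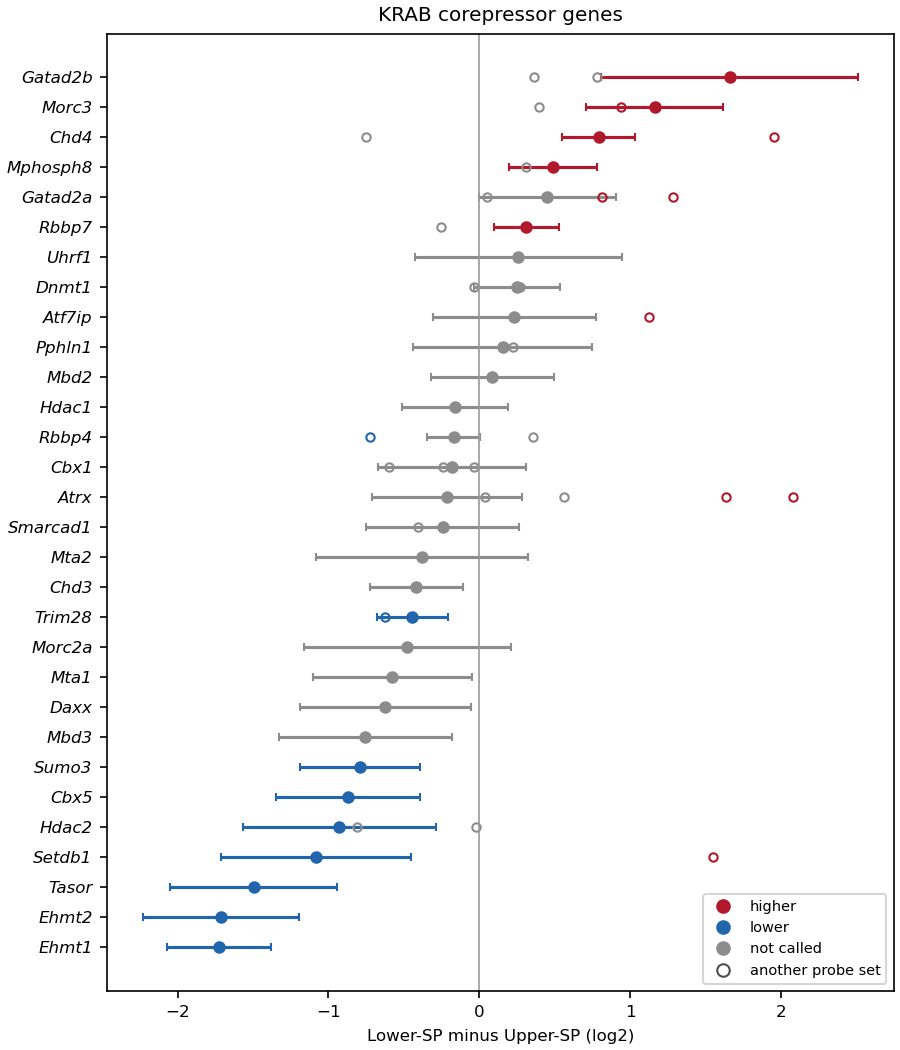
Lower-SP minus Upper-SP difference (horizontal axis, log2) of the 30 tested corepressor genes, ordered by the difference. Filled points are the probe set that reads the gene, with its unadjusted 95% interval from limma, open points are other tested probe sets, red marks calls higher in Lower-SP, blue calls lower and grey no call. Ehmt1 and Ehmt2 lie lowest, at -1.73 and -1.71, and Setdb1 has a blue and a red point.

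Related zinc finger families are set beside the Zfp genes for scale. Over all tested genes 7.05% were higher and 20.7% lower, with a median of -0.24. Of 29 tested Zbtb genes, which join a BTB domain to the fingers, 2 were higher and 2 lower (median -0.03), with Zbtb12 at -1.67 and Zbtb39 at -1.19. Of 10 Zscan and Zkscan genes, which carry a SCAN domain, 1 was higher and 2 lower (median 0.06), with Zscan26 at -1.22 and Zscan21 at -0.91. Of 15 Klf and Sp genes, which bind GC-rich boxes, 5 were higher and 0 lower (median 0.07), with Sp4 at 1.67 and Klf4 at 0.68. With cyclic loess the medians were 0.18, 0.14 and 0.20, beside 0.10 for the Zfp genes and -0.092 for all genes. No difference between families was tested.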

How the data were processed

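Each of the 6 mouse arrays was labelled after repeated rounds of in vitro transcription. The log2 values were deposited by the authors, and GCOS 1.0 and GCRMA are named in the submitters' processing notes without parameters. GCRMA corrects background by probe sequence, normalizes arrays to each other and summarizes probe sets. Overall shifts in RNA content cannot be seen after such normalization.

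The array's 64 control probe sets were not used, and 34945 of the other 45037 carried 1 symbol. Per array, 19317 to 19666 probe sets lay above log2 4. The 19613 above it on at least 3 arrays were fitted with limma 3.58.1 (lmFit and eBayes with a trend, R 4.3.3, two-sided, residual df 4, prior df 3.80, no replicate block), with Benjamini-Hochberg adjustment over all of them. The number of arrays limits the precision. The code was tested on simulated data. Arrays correlated at 0.952 to 0.991 within and 0.911 to 0.938 between fractions, and 0 pairs were identical. For a group averaging less than log2 4, values were raised to 4 and the fold is a bound.

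Members, lists and tests were chosen with earlier results of these data known. Named genes are the 12 most raised and 12 most lowered called members without overlap, members of described function, the 5 brightest, those nearest the filter, those with conflicting probe sets or an outlying Lower-SP replicate 3, and the leading genes of the corepressor and related lists. Other called members were named after their values were seen. Symbols were taken from the array annotation, gene order from the RefSeq table (178 of 179 members matched), promoters from RefSeq and alignments from Biopython 1.88. Classes by KRAB domain or finger count need protein sequences, which were not used here. Alternatives changed the filter, scaling, variance model, probe sets, replicate block and arrays.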

Additional observations from a re-analysis of the deposited data

How the results depend on the processing

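The Zfp counts stayed within 1.5 times of 19 higher and 17 lower with a filter on the mean, values set to at least log2 4, quantile normalization, centring, cyclic loess (26 and 12), no trend and without _x_at and _s_at probe sets. They were 8 and 11 with no filter (all genes 386 and 932), 11 and 8 with a 2-fold minimum (all genes 394 and 847), 1 and 1 of 18 tested with RefSeq mRNA probe sets alone (all genes 88 and 651), and 26 lower when a gene was read by the probe set with the largest SD. That choice turned Zfp281 to -0.84 and Zfp593 to -0.70, as did RefSeq mRNA probe sets alone and leaving out _x_at and _s_at probe sets for Zfp593. Without both Lower-SP replicates 1 and 2, 13 and 10 Zfp genes and 409 and 788 of all genes were called. With 1 array left out the Zfp counts ran from 3 to 22 and from 3 to 24, and those of all genes from 270 to 791 and from 425 to 2294. Cyclic loess over the tested probe sets called 1303 of all genes lower.

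The median of the Zfp genes was 0.084 with centring, 0.10 with cyclic loess and -0.25 with RefSeq mRNA probe sets alone, and that of all genes was 0.022 with no filter, -0.15 with quantile normalization, -0.15 with centring, -0.092 with cyclic loess, -0.40 with RefSeq mRNA probe sets alone, -0.32 with the largest SD and -0.16 without Lower-SP replicates 1 and 2. With 1 array left out the Zfp median ran from -0.03 to 0.04 and that of all genes from -0.27 to -0.21. Scaling moved the share of higher calls among called Zfp genes from 19 of 36 to 26 of 38. The cause of these shifts was not tested, beyond the fewer probe sets or arrays that some settings hold.

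The labels do not tie replicate numbers to the 3 sort days, and arrays with 1 number did not deviate together. Their deviations from the group means correlated at -0.0513, -0.0294 and -0.0233, and 0 of 6 arrays correlated best with its own number. With the number as a replicate block 12 Zfp genes were higher and 13 lower, 12 and 11 of them called without it, among 510 and 1418 of all genes. Classes by KRAB domain were not run. Signal near background limits the dimmest members.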
